A study of Mus musculus with 18 samples.

Results

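The response of p53 wild-type (p53WT) acute myeloid leukemia (AML) to 10 h of CX-5461 was examined in 6 of the 18 samples of the study. These samples were chosen by their labels, 3 from mice given CX-5461 and 3 from mice given vehicle, and all 12679 genes of the deposited count table were described. Both groups carried the same leukemia genotype, MLL/ENL with Nras and wild-type p53, and were grown from cells transplanted into syngeneic C57BL/6 mice with established disease at treatment. At sacrifice, GFP-positive cells were sorted from the bone marrow. The labels give neither the dose, the age of the mice, the construct that carries GFP, the number of animals behind the samples nor whether the leukemia is 1 clone, so that the p-values measure the spread between these samples, which may be technical. The count columns name the arm and a number, which does not match the numbers in the sample titles. The libraries are therefore called vehicle 1 to 3 and CX 1 to 3 after the columns.

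MLL/ENL is a fusion of the chromatin regulator MLL with ENL, a protein of the transcription elongation machinery, and it keeps HOXA cluster genes and Meis1 on in myeloid progenitors. CX-5461 inhibits RNA polymerase I (Pol I), which makes the large ribosomal RNA precursor in the nucleolus. When that synthesis stops, ribosomal proteins that lack a partner are known to bind Mdm2, the ubiquitin ligase that otherwise marks p53 for destruction. Stabilised p53 then binds DNA as a tetramer and turns on genes for cell cycle arrest, cell death, repair and its own feedback.

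The DNA element that p53 binds is a pair of decamers, and the promoters shown here are those of genes that rose and hold a close match to it. The p53 response element was searched by its name in RefSeq windows of the GRCm38.p6 build, from 250 bases before to 50 after each start, with no spacer between the decamers, the C and G of each core kept, and at most 1 mismatch over its 20 bases. The element is its own reverse complement, so 1 search covers both strands. Among 9118 measured genes with a window, 7 held such a match (0.0768%), and 4 of these 7 were among the 388 genes with a window that were higher with CX-5461 (1.03%). The count was 0 of the 440 that were lower. The 4 stretches are shown 5′ to 3′ on the strand of the gene, with the match in capitals.
Cdkn1a, chr17:29090868-29090987, plus strand, match from 51 bases before the start: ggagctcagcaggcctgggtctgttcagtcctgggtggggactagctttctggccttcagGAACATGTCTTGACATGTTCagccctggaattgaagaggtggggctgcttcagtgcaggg
Gtse1, chr15:85859885-85859965, plus strand, match from 1 base before the start: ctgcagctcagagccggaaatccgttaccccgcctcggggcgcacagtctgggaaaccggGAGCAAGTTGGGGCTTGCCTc
Ccng1, chr11:40755422-40755536, minus strand, match from 195 bases before the start: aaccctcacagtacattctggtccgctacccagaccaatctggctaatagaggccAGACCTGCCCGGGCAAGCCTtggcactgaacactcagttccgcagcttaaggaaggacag
Rps27l, chr9:66946236-66946355, plus strand, match from 117 bases before the start: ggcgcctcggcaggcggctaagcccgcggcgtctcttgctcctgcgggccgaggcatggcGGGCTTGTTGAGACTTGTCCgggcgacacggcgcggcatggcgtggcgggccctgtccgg
The Cdkn1a stretch lies at the more upstream of 2 RefSeq starts. The other 3 genes with a match at 1 mismatch were Calhm2, Gm15987 and Mthfd1, which did not pass the test described below. With up to 2 mismatches, 43 measured genes (0.472%), 6 genes that were higher (1.55%) and 1 that was lower (0.227%) held a match. With up to 3 these numbers were 173 (1.90%), 16 (4.12%) and 9 (2.05%). Among the 32 higher genes over 2-fold with a window, 3 held a match at 1 mismatch (9.38%), 4 at 2 (12.5%) and 5 at 3 (15.6%). A match is a description of these letters and no measure of binding.

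The libraries held 21578685 to 48118513 counts over the genes of the table. Levels are given in CPM, counts scaled to an equal library total with TMM factors that adjust for library composition. Genes of the promyelocyte and progenitor state were present in all 6 libraries, with Mpo, the myeloperoxidase gene, at 7653, 5414 and 6239 CPM in vehicle 1, 2 and 3 and 7648, 7762 and 7918 CPM in CX 1, 2 and 3. Elane, the neutrophil elastase gene, was at 4036, 3307 and 3746 CPM and 4342, 4251 and 4176 CPM in the same order, Hoxa9 at 132, 134 and 136 and 143, 131 and 133, and Kit, the stem cell factor receptor gene, at 134, 101 and 124 and 155, 134 and 134. The groups overlapped for Mpo, Hoxa9 and Kit, and Elane was slightly higher in every CX library without passing the test. The T cell marker Cd3e and the platelet marker Pf4 were not among the genes of the table, but other members of their lists were. The 4 measured T and NK cell genes summed to 61.6, 86.0 and 75.0 CPM in vehicle and 94.2, 95.4 and 94.6 CPM with CX-5461. The 7 measured megakaryocyte and platelet genes summed to 96.3, 141 and 44.7 CPM and to 56.6, 60.9 and 43.0 CPM in the same order. The vehicle libraries stood further apart than the CX libraries. Across genes, log2 CPM correlated at 0.974 to 0.987 for pairs of vehicle and at 0.995 to 0.996 for pairs of CX libraries, and the SD was larger in the vehicle group for 75.5% of genes. The median coefficient of variation was 8.75% in vehicle and 4.73% with CX-5461. RNA of red cells differed most: 25 genes of red cell membrane and maturation summed to 1432, 3396 and 687 CPM in vehicle 1, 2 and 3 and to 640.2, 646 and 645 CPM in CX 1, 2 and 3. Vehicle 2 was also the highest library for neutrophil genes, 15568, 28154 and 13077 CPM in vehicle against 7146, 8765 and 7111 CPM with CX-5461. In bulk samples, fewer cells of a type and less RNA per cell cannot be told apart, and the part of these cells in the results below was not tested beyond a fit with the red cell level as a covariate. That fit used the mean log2 CPM of the red cell list, which was 4.94, 6.42 and 2.87 in vehicle 1, 2 and 3 and 1.31, 1.09 and 1.70 in CX 1, 2 and 3, so that it does not overlap between the arms.

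A gene passed, and is said here to rise or fall, at a Benjamini-Hochberg adjusted p under 0.05 in edgeR's quasi-likelihood F test over all 12679 genes. After 10 h of CX-5461, 479 genes rose (3.78%) and 548 fell (4.32%), and the median log2 fold change of all genes was 0.00, with 50.8% of values positive. Rises were mostly small, with a median of 0.44, and falls had a median of -0.54. Of the 479 rises, 46 were over 2-fold and 11 over 4-fold, against 148 and 48 of the 548 falls, and 2 rises and 29 falls were over 16-fold. Every called gene had all 3 CX libraries on 1 side of all 3 vehicle libraries, which held for 19.9% of all genes in the upward and 19.1% in the downward direction. Of the 548 genes that fell, vehicle 2 was the highest library for 465, vehicle 1 for 30 and vehicle 3 for 53. Of the 479 that rose, vehicle 2 was the lowest for 348. Against vehicle 1, 2 and 3 taken singly, the mean of the CX libraries was higher by a median log2 ratio of 0.35, 0.53 and 0.41 over the genes that rose, and lower over those that fell, at -0.43, -0.73 and -0.46.

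**Figure D1:**
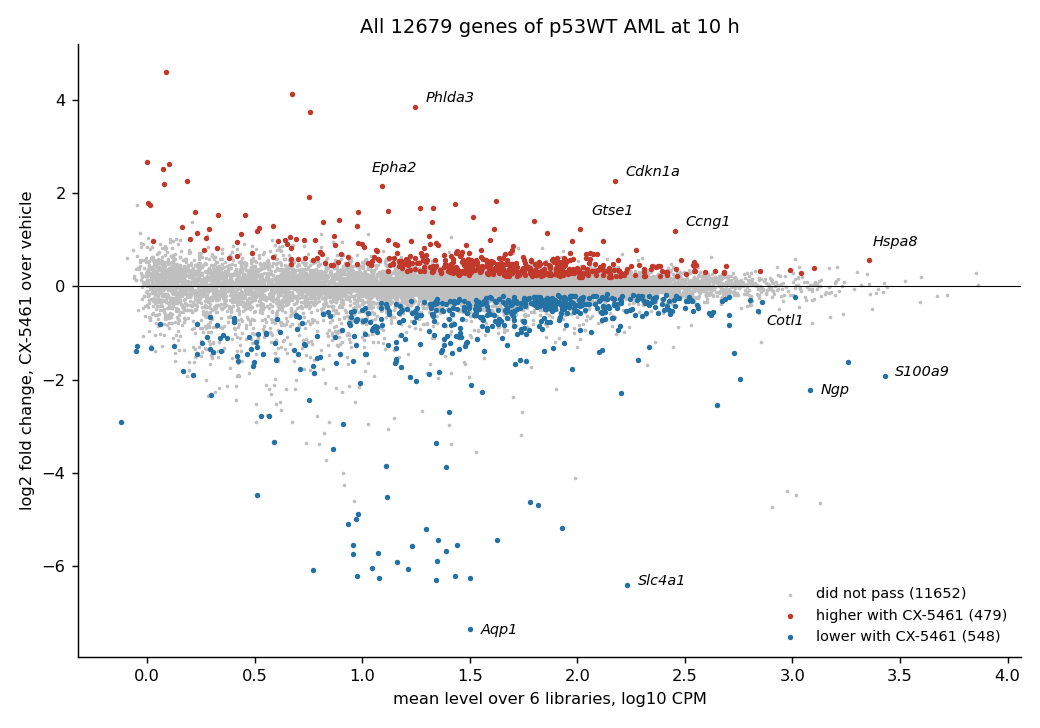
Log2 fold change of CX-5461 over vehicle (vertical axis) against the mean level over the 6 libraries in log10 CPM (horizontal axis) for all 12679 genes of p53WT AML at 10 h. Each point is a gene, red for the 479 that rose, blue for the 548 that fell and grey for those that did not pass. The largest rises, such as Phlda3, stay above the cloud singly, and the falls below -4 form a group that holds Slc4a1 and Aqp1.

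The number of calls depended on which libraries were in the fit. Without CX 1, 2 or 3, 24, 23 and 23 genes were higher and 1, 0 and 0 lower in the edgeR quasi-likelihood test, where 1169, 1218 and 1383 genes were higher and 1369, 1553 and 1558 lower at an unadjusted p under 0.05. Without vehicle 1, 2 or 3, 817, 570 and 474 were higher and 861, 665 and 840 lower. With the red cell level as a covariate, 12 genes were higher and 0 lower, with 729 and 501 at an unadjusted p under 0.05. With the covariate, 479 of the 479 rises and 532 of the 548 falls had the sign they had without it.

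**Figure D2:**
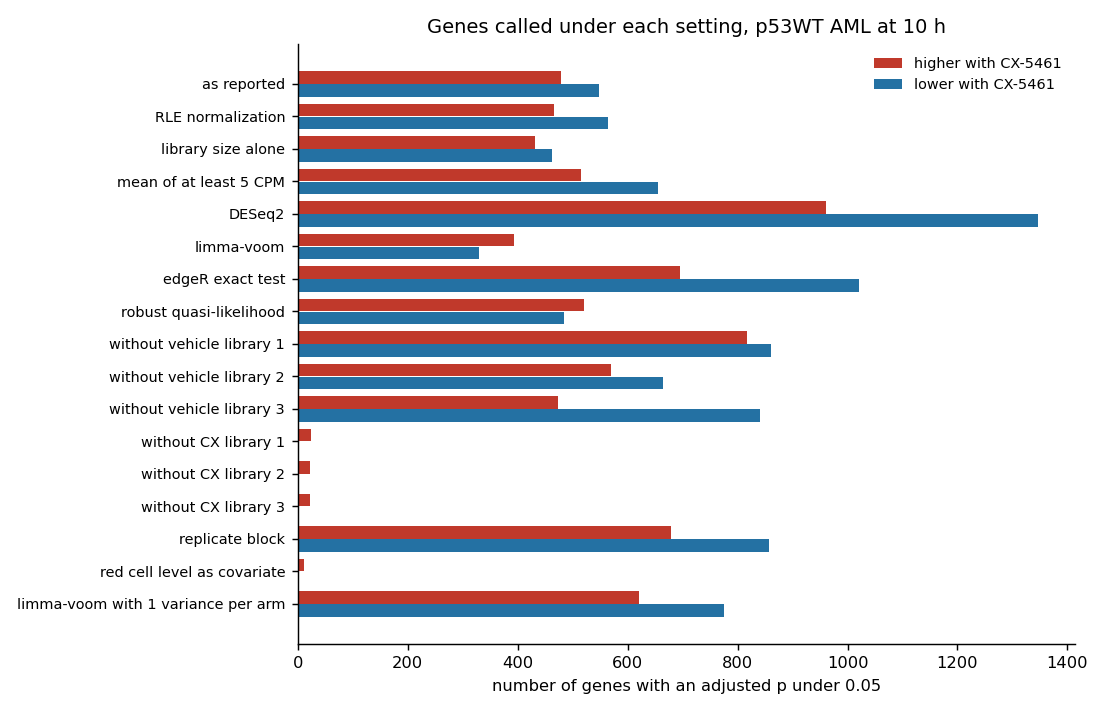
Number of genes with an adjusted p under 0.05 (horizontal axis), higher in red and lower in blue, under the reported setting and each alternative (vertical axis). The bars are close to 0 only in the 3 fits without a CX library and in the fit with the red cell level as a covariate, and the highest bars, 960 higher and 1346 lower, are those of DESeq2.

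Across 65 gene lists with 1787 measured members, p53 targets in apoptosis held the largest share of rises (9 of 14), and p53 targets in arrest (10 of 20) and small subunit assembly (19 of 38) came next. The largest shares of falls were those of red cell (15 of 25) and neutrophil genes (18 of 39). These 2 counts depended on the tool, at 21 and 30 with DESeq2 and 0 and 10 with limma-voom. The 65 lists and their members were chosen with earlier results of these data known, so their counts describe them and carry no test of their own.

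**Figure D3:**
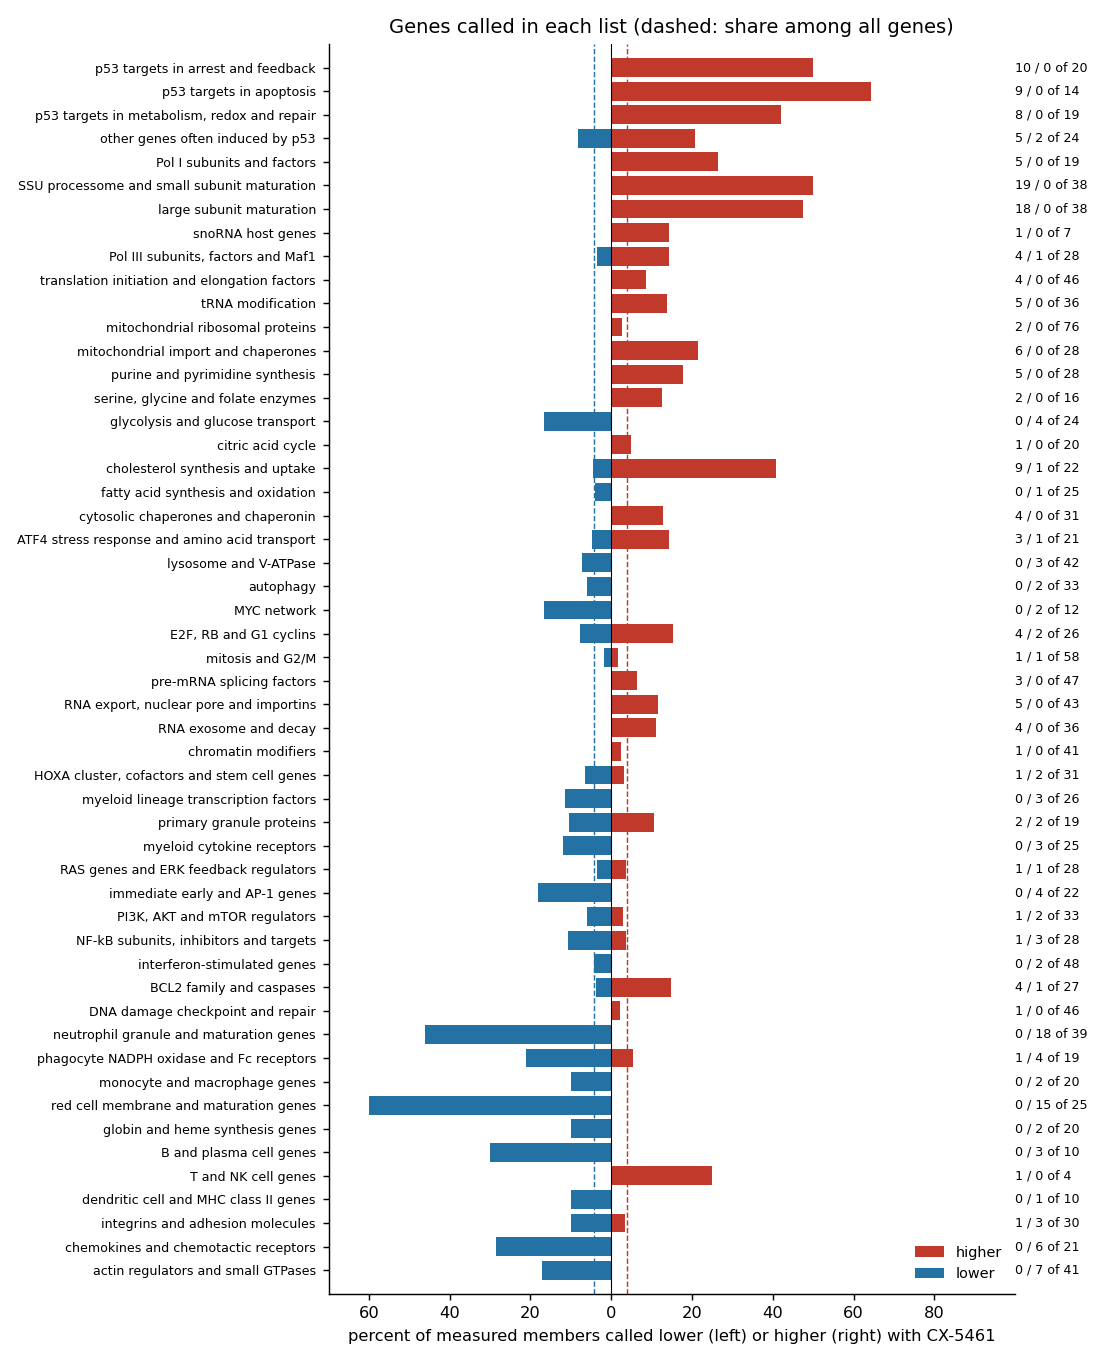
Percent of measured members of each list (vertical axis) that fell (blue, to the left) or rose (red, to the right) with CX-5461, for every list with at least 1 call; numbers at the right give rises / falls of measured members. Dashed lines mark the shares among all genes, 3.78% higher and 4.32% lower. The longest red bars are those of p53 targets in apoptosis (9 of 14) and the longest blue bars those of red cell genes (15 of 25).

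Many genes through which p53 arrests the cell cycle and controls its own level rose. Of 20 measured, 10 rose and 10 did not pass, at a median log2 fold change of 0.63, with 13 values positive and 7 negative. Every CX library was above every vehicle library for 12 members and below for 4, against 19.9% and 19.1% of all genes. DESeq2 called 11 higher and 2 lower. Cdkn1a (ENSMUSG00000023067), the inhibitor of cyclin-dependent kinases p21, was at 51.2, 55.3 and 48.7 CPM in vehicle 1, 2 and 3 and at 232, 262 and 247 CPM in CX 1, 2 and 3. All 3 CX libraries were far above all 3 vehicle libraries, 4.77-fold on the means (log2 fold change 2.25, SE 0.071, adjusted p 8.19e-05). Gtse1 (ENSMUSG00000022385), which encodes a protein of G2 and S phase that moves p53 out of the nucleus, went from 65.5, 60.1 and 59.6 CPM to 141, 146 and 146 CPM. Its groups were each tight and well apart (log2 fold change 1.22, SE 0.054, adjusted p 0.000208). Ccng1 (ENSMUSG00000020326), the cyclin G1 gene, whose product recruits a phosphatase to Mdm2, went from 164, 176 and 179 CPM to 382, 408 and 390.3 CPM (log2 fold change 1.19, SE 0.055, adjusted p 0.000208). Psrc1, which encodes a microtubule-binding protein, went from 17.7, 15.2 and 18.6 to 45.8, 47.8 and 50.7 CPM (log2 fold change 1.48, SE 0.090, adjusted p 0.000715). The RNA-binding zinc finger gene Zmat3 was at 10.2, 9.20 and 10.96 CPM in vehicle and 27.9, 33.8 and 35.97 CPM with CX-5461, with CX 1 the lowest of the treated libraries and still above every vehicle library. The feedback genes Mdm2 and Mdm4 moved together: Mdm2 rose by 0.69 (SE 0.078) and its partner Mdm4 by 0.56 (SE 0.086) on the log2 scale. Without CX 1, 2 or 3, 6, 6 and 6 members of this list were still called.

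Targets that promote cell death were the list with the highest share of calls, 9 of 14, with 13 positive values and a median of 0.67. Phlda3 (ENSMUSG00000041801), whose protein competes with the kinase AKT for membrane lipids, was at 2.60, 1.89 and 2.24 CPM in vehicle and 30.3, 34.3 and 33.8 CPM with CX-5461. That is 14.6-fold on the means, the largest rise among genes above 20 CPM in the higher group (log2 fold change 3.85, SE 0.13, adjusted p 8.19e-05). Aen, an exonuclease gene, went from 62.9, 63.4 and 65.7 CPM to 125, 127 and 122 CPM (log2 fold change 0.96, SE 0.045, adjusted p 0.000208), with a range in each group of a few CPM. Bbc3 (PUMA), a BH3-only protein that frees the pore formers of mitochondria, was at 7.998, 9.77 and 8.73 and 26.8, 28.8 and 29.3 CPM, and Bax, one of those pore formers, at 92.6, 83.6 and 88.6 and 168, 178 and 175 CPM. The death receptor gene Tnfrsf10b went from 7.06, 5.58 and 6.80 to 20.01, 21.7 and 17.5 CPM (log2 fold change 1.60, SE 0.13, adjusted p 0.00296). Further rises were those of Ei24 (0.71), an autophagy-related membrane protein gene, Pidd1 (0.62), the scaffold of the PIDDosome that activates caspase-2, and Pmaip1, known as NOXA (0.79). Rps27l, which encodes a ribosomal protein paralog and holds the element printed above, went from 94.6, 98.7 and 83.4 to 134, 142 and 137 CPM (log2 fold change 0.57, SE 0.070, adjusted p 0.0161). It shares sequence with Rps27 (log2 fold change 0.00), so reads may be split between them and its count is uncertain. Without CX 1, 2 or 3, 5, 5 and 5 members were still called.

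**Figure D4:**
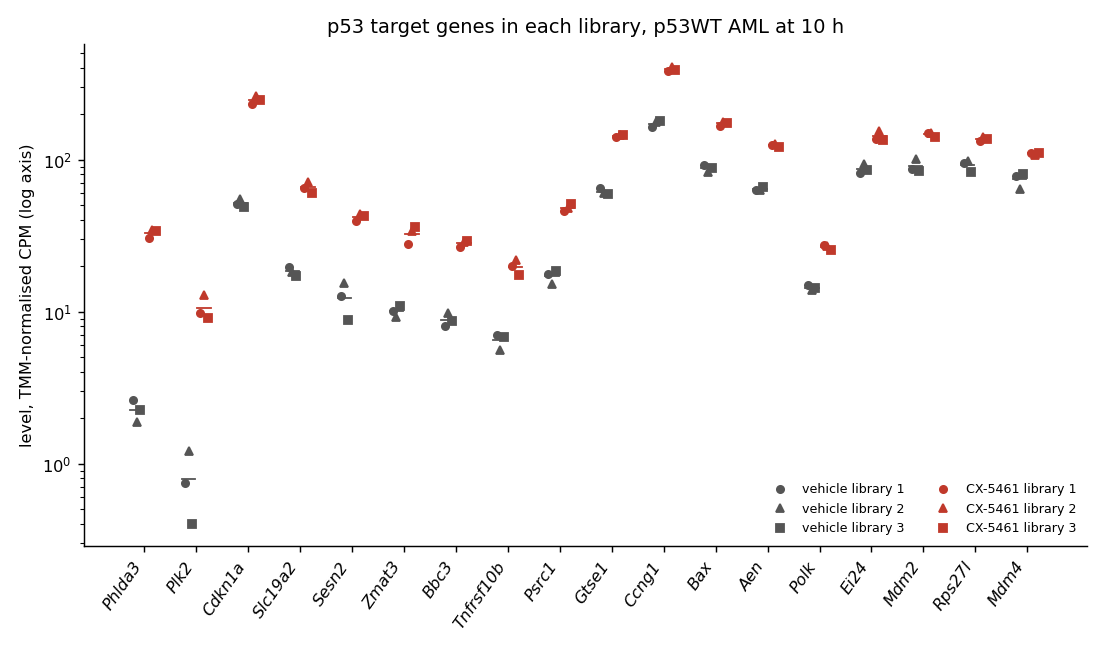
Level of 18 p53 target genes (horizontal axis) in each library, in TMM-normalised CPM on a log axis. Grey symbols are the 3 vehicle and red symbols the 3 CX-5461 libraries, with a circle, triangle and square for libraries 1, 2 and 3 and a bar at each group mean. The 18 genes were chosen among those that rose, so that in each the 3 red symbols lie above the 3 grey ones by choice. The margin is widest in Phlda3 and Plk2. Members of the p53 lists that did not pass or that fell are not shown.

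In the list of p53 targets in metabolism, redox balance and DNA repair, 8 of 19 rose and the rest did not pass (median 0.25). The thiamine transporter gene Slc19a2 was at 19.8, 18.3 and 17.2 CPM in vehicle and 64.8, 71.7 and 60.6 CPM with CX-5461. Polk, which encodes a DNA polymerase that copies past damaged bases, went from 14.9, 13.8 and 14.4 to 27.7, 27.2 and 25.4 CPM (log2 fold change 0.90, SE 0.071, adjusted p 0.00288). Its groups did not overlap and the rise was under 2-fold. Sesn2 and Ddit4, both inhibitors of the growth kinase mTORC1, were at 12.6, 15.5 and 8.86 and at 6.02, 6.11 and 4.16 CPM in vehicle and at 39.2, 43.7 and 42.7 and 12.8, 13.6 and 13.9 CPM with CX-5461 (log2 fold change 1.76 and 1.30). Dcxr, a carbonyl reductase gene (0.88), Lpin1, a phosphatidate phosphatase gene (0.85), the nucleotide excision repair gene Ercc5 (0.59) and the proline catabolism gene Aldh4a1 (0.31) completed the rises. Without CX 1, 2 or 3, 2, 2 and 2 of these were called, against 8 with all libraries. Of 24 further genes often induced by p53, 5 rose and 2 fell (median 0.15). Inka2, a kinase inhibitor gene, went from 0.604, 0.566 and 0.313 CPM to 9.15, 9.13 and 8.64 CPM (log2 fold change 4.12, SE 0.21, adjusted p 0.000323). Epha2, an ephrin receptor gene, went from 3.73, 6.18 and 3.85 to 17.7, 21.7 and 21.2 CPM (log2 fold change 2.14, SE 0.21, adjusted p 0.00883). Zfp365 had 5, 3 and 1 raw counts in vehicle 1, 2 and 3 and 72, 61 and 55 in CX 1, 2 and 3. The members that fell were Ndrg1 (-0.82), a stress-regulated gene, and the diacylglycerol kinase gene Dgka (-0.52).

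Outside these lists, rises above 20 CPM included those of Kank3, Ddias, Enc1 and the noncoding snoRNA host Snhg15. Ddias, whose product protects against DNA damage, went from 25.1, 25.3 and 23.1 to 53.7, 59.1 and 58.9 CPM (log2 fold change 1.22, SE 0.066, adjusted p 0.000451). Kank3, a gene of the cytoskeleton, went from 11.4, 12.7 and 10.8 to 30.6, 33.6 and 27.2 CPM (log2 fold change 1.39, SE 0.11, adjusted p 0.00257). Enc1, which encodes an actin-binding adaptor, was at 14.5, 11.7 and 13.5 and 25.995, 28.7 and 28.9 CPM, and Snhg15 at 12.4, 10.2 and 11.4 and 23.04, 23.1 and 20.7 CPM. Snhg15 is the called member among 7 measured snoRNA host genes. In these 4 genes every CX library was above every vehicle library. Of all genes, 10 were called higher with all libraries and in every alternative fit that tested them. These were Cdkn1a, Gtse1, Ccng1, Phlda3, Aen, Bbc3, Slc19a2, Ddias, Inka2 and D630023F18Rik. Inka2, at a mean of 4.73 CPM, was not in the fit with a minimum mean of 5 CPM. A further 12 were called in all 6 fits without 1 library: Angptl4, Bax, Polk, Plk2, Tnfrsf10b, Ak1, Zmat3, Exoc4, Qpctl, Zfp365, Kank3 and Psrc1. The count of genes called lower in all of these fits was 0, with 1 gene lower without CX 1.

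Many genes that make ribosomes rose, with a smaller median than the p53 targets in arrest and apoptosis. The small subunit processome cleaves and folds the ribosomal RNA precursor, and 19 of 38 measured genes of it and of later small subunit maturation rose, with 36 positive values and a median of 0.30. Of 38 genes of large subunit maturation, 18 rose and all 38 values were positive (median 0.29). Nop58, a core protein of box C/D snoRNPs, which methylate ribosomal RNA, was at 181, 153 and 156 CPM in vehicle and 229, 237 and 209 CPM with CX-5461 (log2 fold change 0.46, SE 0.081, adjusted p 0.0338). Tsr1, a small subunit export factor gene, went from 51.2, 39.6 and 46.9 to 68.2, 68.2 and 66.1 CPM (log2 fold change 0.55, SE 0.093, adjusted p 0.0318), and Ftsj3, a methyltransferase gene of the large subunit pathway, from 134, 111 and 125 to 172, 175 and 167 CPM (log2 fold change 0.47, SE 0.073, adjusted p 0.028). In each of these 3 genes vehicle 2 was the lowest library and the groups did not overlap. The nucleolar acetyltransferase gene Nat10 rose by 0.61 and nucleolin, Ncl, from 1192, 1012 and 1055 to 1442, 1478 and 1344 CPM. For Pol I itself, 5 of 19 subunit and factor genes rose (26.3%, median 0.16): Rrn3, which brings the polymerase to the promoter (0.33), Polr1b (0.54), Taf1c (0.42), Cd3eap (0.31) and Utp4 (0.49). Ubtf, the nucleolar architecture factor gene, was at 268, 241 and 252 CPM in vehicle and 283, 286 and 268 CPM with CX-5461 and did not pass (adjusted p 0.15). RNA polymerase III makes 5S ribosomal RNA and transfer RNA. Of 28 genes of it, 4 rose (14.3%) and 1 fell (3.57%), against 3.78% and 4.32% of all genes. The fall was that of the repressor gene Maf1, from 85.7, 96.9 and 87.4 to 69.7, 66.7 and 74.5 CPM (log2 fold change -0.36, SE 0.068, adjusted p 0.0364).

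These ribosome gene differences were the smallest against vehicle 1. Relative to the mean of the CX libraries, the median log2 CPM of small subunit genes was -0.21, -0.44 and -0.29 in vehicle 1, 2 and 3, and that of large subunit genes -0.21, -0.38 and -0.31. All 3 values were negative for each list, and vehicle 2, the library with the most red cell and neutrophil RNA, was the lowest. With the red cell level as a covariate, the medians were 0.19 and 0.20 with 34 and 36 of 38 values positive, and 0 members of either list were called. No member of the Pol I, Pol III or subunit lists was called without CX 1, 2 or 3, where the small subunit median was 0.28 to 0.32 and the large subunit median 0.28 to 0.31. Leaving out vehicle 1, 2 or 3 gave 24, 20 and 10 small subunit and 26, 20 and 16 large subunit genes higher.

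The supply lines of translation moved in the same direction in part. Of 36 genes of transfer RNA modification, 5 rose (median 0.15), among them both subunits of the tRNA guanine methyltransferase, Mettl1 (0.56) and Wdr4 (0.49). Wdr4 was at 43.9, 38.1 and 39.03 CPM in vehicle and 55.8, 57.1 and 57.04 CPM with CX-5461 (log2 fold change 0.49, SE 0.066, adjusted p 0.0213). Trmt61a, the catalytic subunit gene of another tRNA methyltransferase, went from 19.6, 17.1 and 19.1 to 29.5, 29.3 and 29.97 CPM (log2 fold change 0.67, SE 0.073, adjusted p 0.013). The groups of both genes were separate, with the CX libraries within 2 CPM of each other. The pseudouridine synthase gene Pus7 (0.72) and the cytosine methyltransferase gene Nsun2 (0.36) rose as well. For aminoacyl-tRNA synthetases, which load amino acids, edgeR quasi-likelihood called 0 of 21; at an unadjusted p under 0.05 there were 11 higher and 1 lower, DESeq2 called 5 higher and 0 lower, limma-voom 0 higher and 0 lower and the exact test 4 higher and 0 lower. Their median was 0.14, and Eprs (0.36, adjusted p 0.0508) and Farsa (0.37, adjusted p 0.0509) were nearest to the threshold. Of 46 initiation and elongation factor genes, 4 rose (8.70%, against 3.78% of all genes), at a list median of 0.08. These were the initiation factor genes Eif1a (0.51), Eif4a1 (0.28), Eif3b (0.32) and Eif1ad (0.19). Eif4a1, the helicase that opens messenger RNA for scanning, was at 1034, 959 and 984 CPM in vehicle and 1223, 1223 and 1162 CPM with CX-5461. Without any 1 CX library none of these list members was called.

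Genes that handle RNA in the nucleus rose in small numbers above the background share. Of 43 genes of RNA export, nuclear pores and importins, 5 rose and 41 values were positive (median 0.16). Xpot, the exporter of transfer RNA, went from 159, 135 and 149.7 to 190.04, 194 and 190.4 CPM (log2 fold change 0.37, SE 0.064, adjusted p 0.0333), and Xpo5, the exporter of microRNA precursors, from 144, 123 and 147 to 171, 174 and 176 CPM (log2 fold change 0.33, SE 0.073, adjusted p 0.0427). Ipo4 and Ipo5, which import ribosomal proteins and histones, rose by 0.50 and 0.27, and the pore basket gene Nup153 by 0.27. The RNA exosome trims and degrades RNA from its 3′ end, and 4 of 36 genes of exosome and decay rose, led by the nuclease gene Dis3, at 59.9, 50.8 and 57.9 CPM in vehicle and 78.6, 79.3 and 75.8 CPM with CX-5461 (log2 fold change 0.47, SE 0.070, adjusted p 0.0266). Of 47 splicing factor genes, 3 rose, Hnrnpa1 (0.21), Sf3b3 (0.33) and Prpf31 (0.23). Their share, 6.38%, was nearer to the background of 3.78%. Hnrnpa1 has many processed copies in the genome, so its count is uncertain. For RNA polymerase II and Mediator, edgeR quasi-likelihood called 0 of 47; at an unadjusted p under 0.05 there were 5 higher and 1 lower, DESeq2 called 2 higher and 0 lower, limma-voom 0 higher and 0 lower and the exact test 0 higher and 0 lower. Their median was 0.04. None of the members named here was called without CX 1, 2 or 3, and without vehicle 1, 2 or 3, 10, 10 and 6 export, 6, 2 and 2 exosome and decay and 8, 3 and 0 splicing genes were higher.

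Building blocks for RNA and proteins that fold new chains were also among the rises. Purines and pyrimidines are made by long pathways, of which 5 of 28 measured genes rose (median 0.20). Cad, which encodes the enzyme of the first steps of pyrimidine synthesis, was at 166, 102 and 146 CPM in vehicle and 248, 228 and 237 CPM with CX-5461. Vehicle 2 was low and the CX libraries were close together, which left a log2 fold change of 0.78 (SE 0.16, adjusted p 0.0408). The purine synthesis genes Pfas (0.52), Gart (0.44), Adsl (0.32) and Prps2 (0.36) rose with it. Of 16 serine, glycine and folate enzymes, 2 rose, Mat2a, which makes the methyl donor S-adenosylmethionine (0.46), and Gcsh of the glycine cleavage system (0.39), at a list median of 0.26. Among 31 cytosolic chaperones, 4 rose: Hspa8, the constitutive HSP70, the chaperonin genes Cct3 (0.36) and Cct6a (0.30), and the HSP90 partner Fkbp4 (0.44). Hspa8, the most abundant gene that rose, was at 1753, 1572 and 2144 CPM in vehicle and 2716, 2609.6 and 2786 CPM with CX-5461 (log2 fold change 0.57, SE 0.11, adjusted p 0.0387). Its vehicle libraries spread widely and stayed below every CX library. No member of these 3 lists was called without CX 1, 2 or 3, and without vehicle 1, 2 or 3, 10, 7 and 5 nucleotide and 9, 4 and 2 folate genes were higher.

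Among mitochondrial genes, calls were few outside protein import. Of 28 import and chaperone genes, 6 rose, among them the chaperonin pair Hspe1 (0.34) and Hspd1 (0.42), the prohibitin gene Phb (0.25) and the translocase gene Timm23 (0.21). Hspe1 was at 81.6, 77.4 and 82.1 CPM in vehicle and 103, 98.97 and 102 CPM with CX-5461 (log2 fold change 0.34, SE 0.047, adjusted p 0.0236). Of 76 mitochondrial ribosomal protein genes, 2 rose, Mrpl19 (0.26) and Mrps2 (0.25), a share of 2.63% against the background of 3.78%. For the nuclear genes of respiratory complexes I to V, edgeR quasi-likelihood called 0 of 74; at an unadjusted p under 0.05 there were 2 higher and 4 lower, DESeq2 called 2 higher and 1 lower, limma-voom 0 higher and 0 lower and the exact test 0 higher and 1 lower. Their median was -0.06, and 54 of 74 members were negative. The covariate turned that median to 0.14, the opposite sign. For the genes encoded by mitochondrial DNA, edgeR quasi-likelihood called 0 of 15; at an unadjusted p under 0.05 there were 0 higher and 1 lower, DESeq2 called 0 higher and 0 lower, limma-voom 0 higher and 0 lower and the exact test 0 higher and 0 lower. Their summed level was 18545, 20028 and 15576 CPM in vehicle and 18089, 16458 and 15177 CPM with CX-5461, so that the groups overlapped, and their median turned from -0.09 to 0.22 with the covariate. That fit gave medians of 0.20 for import and 0.14 for mitochondrial ribosomal genes. In the citric acid cycle 1 of 20 rose, the isocitrate dehydrogenase subunit gene Idh3a (0.23), a share of 5.0% against 3.78%. No member of these 5 lists was called without CX 1, 2 or 3, and without vehicle 1, 2 or 3, 13, 8 and 3 import and 6, 2 and 1 ribosomal genes were higher.

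Several sterol genes rose and a few sugar genes fell. Of 22 genes of cholesterol synthesis and uptake, 9 rose (40.9%) and 1 fell (4.55%), Ebp (-0.24), at a median of 0.34. The shares of all genes were 3.78% higher and 4.32% lower. Sqle, the squalene epoxidase gene, went from 38.3, 28.1 and 38.6 to 55.2, 65.2 and 50.2 CPM (log2 fold change 0.70, SE 0.15, adjusted p 0.0408). In this gene CX 2 was the highest library and vehicle 2 the lowest. Insig1, the sensor that holds back sterol synthesis, rose by 0.43 on the log2 scale. Of 25 genes of fatty acid synthesis and oxidation, 1 fell, Acadl (-0.41), and the median was -0.01. That share was 4.0%, against 4.32% of all genes. In glycolysis, 4 of 24 genes fell while the list median was -0.02. Slc2a3, the high-affinity glucose transporter gene GLUT3, was at 69.6, 132 and 59.8 CPM in vehicle and 27.7, 31.7 and 26.4 CPM with CX-5461 (log2 fold change -1.61, SE 0.29, adjusted p 0.0344). Vehicle 2 was well above the other vehicle libraries, and all 3 vehicle libraries were above all 3 CX libraries. Pfkfb4, a regulator of glycolytic flux, went from 46.1, 69.9 and 50.97 to 33.1, 34.9 and 31.4 CPM (log2 fold change -0.75, SE 0.15, adjusted p 0.0398), and the log2 fold changes of the hexokinase gene Hk1 and the lactate dehydrogenase gene Ldhb were -0.25 and -0.70. None of these sterol or sugar genes was called without CX 1, 2 or 3. Under the red cell covariate the cholesterol median was 0.16, with 16 of 22 values positive, and 0 members were called.

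Beyond the arrest genes above, replication and mitosis genes showed few calls at 10 h, and G1 genes held a larger share. The E2F and RB proteins and the G1 cyclins decide on entry into S phase, and of 26 of their genes 4 rose and 2 fell (median 0.01). That is 15.4% higher and 7.69% lower, against 3.78% and 4.32% of all genes. Rbl2, which encodes the pocket protein p130, went from 88.999, 88.7 and 93.04 to 111, 117 and 113 CPM (log2 fold change 0.33, SE 0.046, adjusted p 0.0213). The cyclin genes diverged: Ccnd1 was at 33.1, 17.2 and 28.5 CPM in vehicle and 45.8, 57.1 and 53.6 CPM with CX-5461 (log2 fold change 0.98), and Ccnd3 at 365, 477 and 427 and 293, 315 and 308 CPM (-0.47). In Ccnd1 vehicle 2 was the lowest library and in Ccnd3 the highest. The kinase inhibitor gene Cdkn2c fell from 39.4, 57.4 and 41.98 to 23.6, 24.7 and 28.1 CPM (log2 fold change -0.86, SE 0.15, adjusted p 0.0344). For DNA replication genes, edgeR quasi-likelihood called 0 of 42; at an unadjusted p under 0.05 there were 6 higher and 4 lower, DESeq2 called 0 higher and 2 lower, limma-voom 0 higher and 0 lower and the exact test 0 higher and 0 lower. Their median was 0.01. Of 58 mitosis and G2/M genes, 1 rose, the transcription factor gene Mybl2 (0.21), and 1 fell, the midzone kinesin gene Kif23, which went from 98.8, 105 and 96.8 to 75.4, 69.8 and 79.3 CPM (log2 fold change -0.42, SE 0.063, adjusted p 0.0265). Each direction of the mitosis list held a share of 1.72%, below the 3.78% higher and 4.32% lower of all genes. The mitosis median was -0.11 with 48 of 58 values negative, and 0.02 with the red cell level as a covariate, the opposite sign. Of 46 genes of DNA damage checkpoints and repair, 1 rose, the checkpoint kinase gene Atr (0.38, SE 0.090), a share of 2.17% against 3.78%. In the BCL2 and caspase list, 4 of 27 rose (14.8%) and 1 fell (3.70%), against 3.78% and 4.32% of all genes. The rises included that of the survival gene Bcl2, at 24.6, 19.99 and 20.3 CPM in vehicle and 28.5, 29.97 and 28.4 CPM with CX-5461. The fall was that of the BH3-only gene Bmf (-0.83). Without CX 1, 2 or 3 the calls left in all of these lists were those of Bbc3 and Bax.

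Protein turnover and stress genes mostly did not pass. For proteasome subunits, edgeR quasi-likelihood called 0 of 37; at an unadjusted p under 0.05 there were 4 higher and 0 lower, DESeq2 called 2 higher and 0 lower, limma-voom 0 higher and 0 lower and the exact test 0 higher and 0 lower. For the unfolded protein response of the endoplasmic reticulum, edgeR quasi-likelihood called 0 of 25; at an unadjusted p under 0.05 there were 1 higher and 1 lower, DESeq2 called 1 higher and 0 lower, limma-voom 0 higher and 0 lower and the exact test 0 higher and 0 lower. For glutathione, thioredoxin and NRF2 genes, edgeR quasi-likelihood called 0 of 25; at an unadjusted p under 0.05 there were 1 higher and 6 lower, DESeq2 called 1 higher and 3 lower, limma-voom 1 higher and 0 lower and the exact test 0 higher and 2 lower. In the ATF4 stress response and amino acid transport, 3 of 21 rose: Sesn2, the arginine transporter gene Slc7a1 (0.42) and the glutamine transporter gene Slc1a5, at 186, 182 and 179 CPM in vehicle and 242, 220.4 and 216 CPM with CX-5461 (log2 fold change 0.31, SE 0.056, adjusted p 0.0345). That is 14.3% higher, against 3.78% of all genes, and 1 fall made 4.76%, against 4.32%. The member that fell was the glycine transporter gene Slc6a9, at 3.999, 13.5 and 1.12 CPM in vehicle and 0.290, 0.230 and 0.298 CPM with CX-5461, in the same order of vehicle libraries as the red cell genes. Of 42 lysosome genes 3 fell (median -0.11), a share of 7.14% against 4.32% of all genes, among them Tfeb and Tfe3, the transcription factors that drive lysosome genes. Tfeb went from 19.7, 27.9 and 18.2 to 12.6, 12.3 and 13.6 CPM (log2 fold change -0.77, SE 0.16, adjusted p 0.0419) and Tfe3 from 53.9, 52.6 and 49.9 to 36.3, 40.6 and 43.7 CPM (log2 fold change -0.38, SE 0.078, adjusted p 0.0405). Both genes had non-overlapping groups, by a narrower margin in Tfe3. Of 33 autophagy genes 2 fell (6.06%), the scaffold gene Rb1cc1 (-0.23) and Gabarap (-0.40), a small modifier on autophagosome membranes, at a median of -0.17 and with 21 of 33 members lower in every CX library than in any vehicle library, against 19.1% of all genes. With the red cell level as a covariate the lysosome median was -0.03 and the autophagy median -0.03. No member of these lists was called without CX 1, 2 or 3, and 7, 6 and 8 autophagy genes were lower without vehicle 1, 2 or 3.

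Few genes of the MLL fusion program passed. For MLL fusion cofactors and the elongation complex, edgeR quasi-likelihood called 0 of 21; at an unadjusted p under 0.05 there were 4 higher and 2 lower, DESeq2 called 2 higher and 0 lower, limma-voom 0 higher and 0 lower and the exact test 1 higher and 0 lower. Dot1l, the histone methyltransferase that MLL fusions recruit, was at 129, 110.2 and 129.8 CPM in vehicle and 151, 142 and 150.2 CPM with CX-5461, with a log2 fold change of 0.26 (SE 0.073, adjusted p 0.0638). Of 31 HOXA, cofactor and stem cell genes, Bcl2 rose, and the HOX cofactor gene Pbx2 and Id2, an inhibitor of helix-loop-helix factors, fell. That is 3.23% higher and 6.45% lower, against 3.78% and 4.32% of all genes. Pbx2 went from 83.7, 91.4 and 89.4 to 72.1, 67.6 and 68.8 CPM (log2 fold change -0.34, SE 0.055, adjusted p 0.0299), and Id2 from 23.6, 49.1 and 37.996 to 15.6, 19.9 and 17.5 CPM (log2 fold change -1.06, SE 0.25, adjusted p 0.0499). The vehicle libraries of Id2 were far apart while those of Pbx2 were not. Meis1 was at 137, 110.4 and 117 CPM in vehicle and 145, 139.5 and 131 CPM with CX-5461 and did not pass (adjusted p 0.177). Of 41 chromatin modifier genes, 1 rose (2.44%, against 3.78% of all genes), Arid2 (0.33), a subunit gene of a SWI/SNF remodeller. In the MYC network of 12 genes 2 fell. Myc was at 202, 153 and 206 CPM in vehicle and 238, 243 and 221 CPM with CX-5461 and did not pass (log2 fold change 0.32, adjusted p 0.107), while the relatives Mycl (-2.34) and Mxd1 (-1.39), a MYC antagonist of maturing myeloid cells, were the members that fell. Mxd1 was at 105, 145 and 54.2 CPM in vehicle and 38.4, 38.7 and 39.5 CPM with CX-5461, with vehicle 2 the highest.

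Some genes of myeloid maturation fell. Of 26 myeloid transcription factor genes 3 fell (median -0.26), the Kruppel-like factor genes Klf6 and Klf2 (-1.45) and Maf (-1.90). Klf6 went from 68.7, 94.7 and 70.8 to 38.9, 43.3 and 39.5 CPM (log2 fold change -0.94, SE 0.13, adjusted p 0.0213). Primary granules are filled at the promyelocyte stage, and of 19 genes in the list named for them 2 rose and 2 fell (median -0.01). The list is broad, and membership does not place a protein in these granules. The rises were those of Nkg7, at 56.1, 65.2 and 71.6 and 91.1, 92.2 and 91.8 CPM (log2 fold change 0.51, SE 0.087, adjusted p 0.0323), and of the protease inhibitor gene Cst7 (0.34). The falls were those of annexin A1, Anxa1 (-1.59), and ficolin B, Fcnb (-1.58). Of 25 cytokine receptor genes 3 fell: Csf3r, the G-CSF receptor, the decoy receptor Il1r2 (-1.23) and the interleukin-10 receptor Il10ra (-0.93). Csf3r was at 294, 308 and 299 CPM in vehicle and 232, 224 and 215 CPM with CX-5461 (log2 fold change -0.42, SE 0.048, adjusted p 0.0136). Its vehicle libraries differed little, with no marked place for vehicle 2. The pan-leukocyte phosphatase gene Ptprc fell too, from 394, 453 and 380.5 to 302, 313 and 310.4 CPM (log2 fold change -0.41, SE 0.073, adjusted p 0.0344). The medians with the red cell covariate were -0.09 for transcription factors and -0.10 for receptors. No gene of these lists was called without CX 1, 2 or 3, and without vehicle 1, 2 or 3, 7, 4 and 4 transcription factor and 6, 2 and 3 primary granule genes were lower.

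Signalling lists held small numbers of falls. Of 22 immediate early and AP-1 genes 4 fell (median -0.38), a share of 18.2% against 4.32% of all genes. These were Klf6, Klf2, Zfp36, whose protein destabilises cytokine messenger RNA (-0.84), and the phosphatase gene Dusp1 (-1.65). Dusp1 was at 12.7, 16.4 and 5.19 CPM in vehicle and 4.30, 3.40 and 3.24 CPM with CX-5461, with vehicle 3 close to the CX libraries. Of 28 NF-kB genes 1 rose (3.57%) and 3 fell (10.7%), against 3.78% and 4.32% of all genes, at a list median of -0.20. The subunit genes Nfkb1 and Rela fell by a small and even amount, Nfkb1 from 205, 211 and 208 to 179, 180.1 and 183 CPM (log2 fold change -0.21, SE 0.040, adjusted p 0.0373) and Rela from 101, 102 and 96.4 to 89.01, 84.5 and 87.3 CPM (log2 fold change -0.20, SE 0.047, adjusted p 0.0494). The adhesion receptor gene Icam1 rose from 12.4, 15.7 and 14.1 to 18.3, 21.8 and 19.7 CPM (log2 fold change 0.50, SE 0.11, adjusted p 0.0444). Of 33 PI3K, AKT and mTOR genes, Ddit4 rose (3.03%), and Foxo4 (-0.38) and Pik3r5 (-0.54) fell (6.06%), shares near those of all genes, 3.78% and 4.32%. Of 28 RAS and ERK feedback genes, the ERK pathway inhibitor gene Spred2 rose (0.35) and Dusp1 fell, 3.57% in each direction, which is below the shares of all genes. None of these genes was called without CX 1, 2 or 3, and with the red cell level as a covariate the immediate early median was 0.08, the opposite sign.

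Interferon and antigen presentation genes separated the libraries in another way. The 48 interferon-stimulated genes summed to 2453, 3939.6 and 3432 CPM in vehicle 1, 2 and 3 and to 2533, 3189 and 3212 CPM in CX 1, 2 and 3. Library 1 was the lowest of each arm, and the groups overlapped. Of these genes 2 fell, the guanylate-binding protein gene Gbp2 (-1.60) and Samhd1 (-0.49), which degrades deoxynucleotides, a share of 4.17% against a background of 4.32%. Without vehicle 1, 2 or 3 these lower counts were 6, 1 and 3. Relative to the CX mean, the list median was -0.33, 0.39 and 0.26 in vehicle 1, 2 and 3 and -0.30, 0.13 and 0.16 in CX 1, 2 and 3. The median log2 fold change was -0.15, and 0.02 with the red cell covariate, the opposite sign. For MHC class I and antigen processing, edgeR quasi-likelihood called 0 of 19; at an unadjusted p under 0.05 there were 0 higher and 4 lower, DESeq2 called 0 higher and 1 lower, limma-voom 0 higher and 0 lower and the exact test 0 higher and 2 lower. That list summed to 3848, 6388 and 5518 CPM in vehicle and 4107, 4529 and 4798 CPM with CX-5461, and library 1 was again the lowest of each arm. Without vehicle 1, 2 or 3, 9, 0 and 0 of its members were lower.

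**Figure D5:**
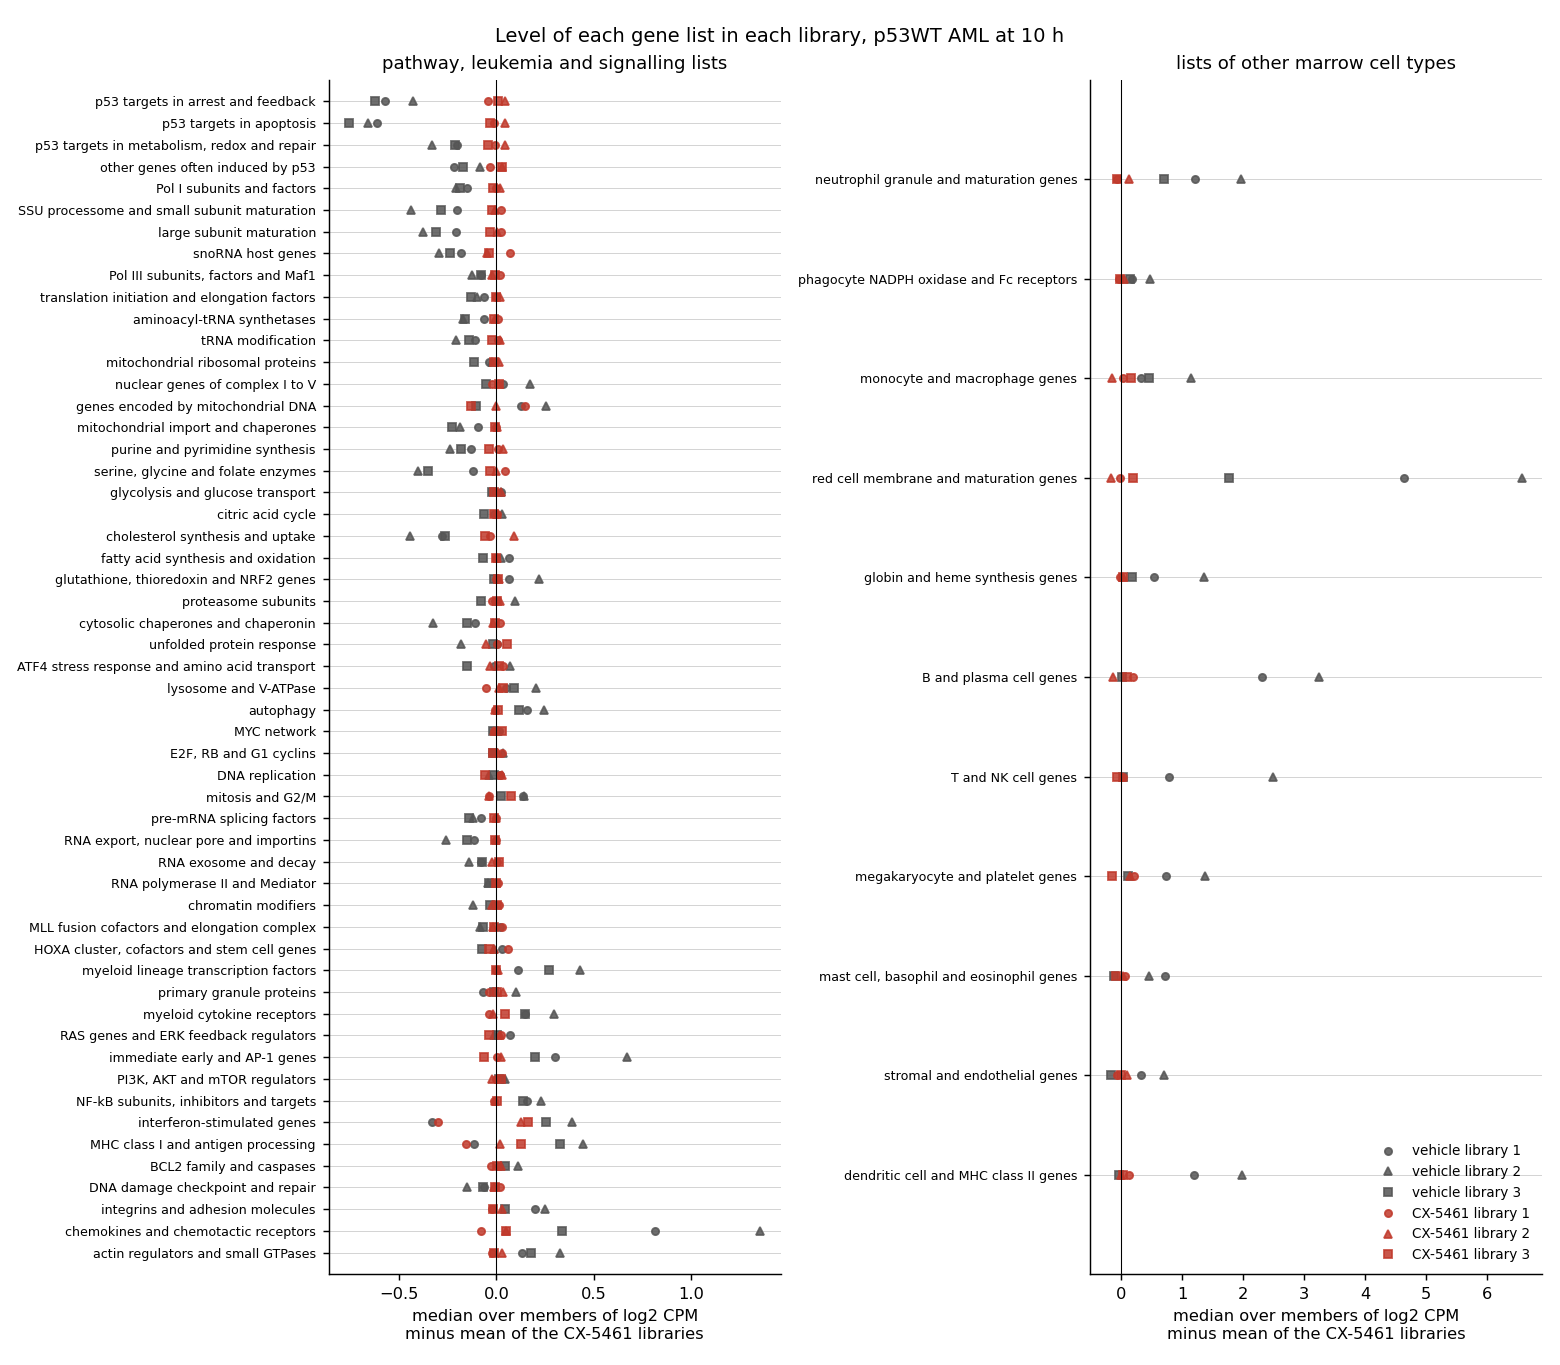
Median over the members of each list of log2 CPM minus the mean of the 3 CX-5461 libraries (horizontal axis) for each list (vertical axis), with pathway lists at the left and lists of other marrow cell types at the right, on a wider scale. Grey symbols are vehicle and red symbols CX-5461 libraries, with a circle, triangle and square for libraries 1, 2 and 3. Vehicle 2 lies farthest from 0 for most lists of other cell types, up to 6.58 for red cell genes, and the p53 lists are lower in all 3 vehicle libraries.

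Genes typical of red cells, mature neutrophils and other marrow cells were among the largest falls, in libraries made from cells sorted for GFP. Whether leukemia cells or other cells that passed the sort held this RNA cannot be told apart in these data. Of 25 red cell membrane and maturation genes 15 fell and all 25 values were negative (median -5.44). In this list DESeq2 called 21 lower, the exact test 21, limma-voom 0 and robust quasi-likelihood 1. Of 20 globin and heme synthesis genes 2 fell (median -0.72). Alas2, the gene of the first enzyme of heme synthesis in red cells, was at 106, 377 and 10.6 CPM in vehicle and 3.40, 5.78 and 4.73 CPM with CX-5461 (log2 fold change -5.18, SE 1.21, adjusted p 0.0472), with vehicle 3 close to the CX libraries. Of 39 neutrophil granule and maturation genes 18 fell and all 39 values were negative (median -1.36). Here DESeq2 called 30 lower, the exact test 31, limma-voom 10 and robust quasi-likelihood 6. The neutrophil surface gene Ly6g was at 18.1, 18.7 and 3.45 CPM in vehicle and 1.03, 1.19 and 1.40 CPM with CX-5461 (log2 fold change -3.49, SE 0.63, adjusted p 0.0345), lactoferrin, Ltf, at 1028, 981 and 265 and 119, 146 and 127 CPM, and lipocalin 2, Lcn2, at 726, 1108 and 502 and 276, 338 and 254 CPM. Vehicle 3 was the lowest vehicle library for Ly6g and the groups did not overlap for any of the 3. Of 19 genes of the phagocyte oxidase and Fc receptors 4 fell (21.1%) and 1 rose (5.26%), against 4.32% and 3.78% of all genes. The falls included those of the oxidase genes Cybb, from 248, 427 and 241 to 105, 125 and 144 CPM, and Ncf1, from 522, 736 and 583 to 396, 409 and 389 CPM. The rise was that of the receptor gene Tlr1 (0.28). Of 20 monocyte and macrophage genes, Ccr2 (-0.74) and the complement gene C1qa (-2.79) fell. Of 10 B and plasma cell genes 3 fell, the immunoglobulin genes Ighg2c (-6.21), Ighg2b (-3.87) and Ighm (-1.41), whose counts are uncertain because near-identical genes share reads. In that list DESeq2 called 6 lower, the exact test 5, limma-voom 0 and robust quasi-likelihood 1. Of 4 measured T and NK cell genes, Nkg7 rose, which is also in the primary granule list. In the list of dendritic cell and MHC class II genes, 1 of 10 fell, H2-Eb1 (-2.95).

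For the remaining marker lists the calls were 0. For megakaryocyte genes, edgeR quasi-likelihood called 0 of 7; at an unadjusted p under 0.05 there were 0 higher and 3 lower, DESeq2 called 0 higher and 2 lower, limma-voom 0 higher and 0 lower and the exact test 0 higher and 2 lower. For mast cell, basophil and eosinophil genes, edgeR quasi-likelihood called 0 of 12; at an unadjusted p under 0.05 there were 1 higher and 2 lower, DESeq2 called 0 higher and 2 lower, limma-voom 0 higher and 0 lower and the exact test 0 higher and 2 lower. For stromal and endothelial genes, edgeR quasi-likelihood called 0 of 8; at an unadjusted p under 0.05 there were 1 higher and 1 lower, DESeq2 called 0 higher and 1 lower, limma-voom 0 higher and 0 lower and the exact test 0 higher and 1 lower. Without CX 1, 2 or 3 no gene of any of these marker lists was called. Without vehicle 1, 2 or 3, 15, 17 and 22 red cell and 22, 19 and 24 neutrophil genes were lower. For globin and heme genes these counts were 0, 2 and 14, for monocyte and macrophage genes 6, 4 and 6, for B and plasma cell genes 2, 3 and 7, and for dendritic cell genes 0, 3 and 6. With the red cell level as a covariate the neutrophil median was -0.21 and the monocyte median -0.10. The other marker medians turned to the opposite sign, except those of the red cell list itself and of the phagocyte oxidase list (-0.11). They were 0.59 for globin and heme, 0.82 for B and plasma cell, 0.68 for T and NK cell, 0.44 for dendritic cell, 0.49 for megakaryocyte, 0.08 for mast cell, basophil and eosinophil and 0.47 for stromal genes, from -0.72, -2.27, -1.59, -1.23, -0.76, -0.36 and -0.45 without the covariate.

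Genes for movement and shape fell in part. Of 21 chemokine and chemotactic receptor genes 6 fell (median -0.95), all receptors for signals that draw phagocytes. C5ar2, a receptor for complement C5a, was at 7.23, 9.73 and 5.997 CPM in vehicle and 3.22, 3.12 and 3.24 CPM with CX-5461 (log2 fold change -1.26, SE 0.19, adjusted p 0.0267), and C5ar1, the other such receptor, at 52.3, 98.5 and 49.7 and 24.9, 33.1 and 25.3 CPM (log2 fold change -1.27, SE 0.28, adjusted p 0.043). The platelet-activating factor receptor gene Ptafr had a log2 fold change of -1.01, and Cxcr2, a receptor of mature neutrophils, went from 66.3, 87.8 and 24.6 to 11.1, 13.2 and 13.1 CPM. Of 41 actin regulator and small GTPase genes 7 fell, 39 values were negative (median -0.18), and 28 members were lower in every CX library than in any vehicle library, against 19.1% of all genes. Zyx, which encodes the focal adhesion protein zyxin, went from 285, 374 and 318 to 218, 225 and 228 CPM (log2 fold change -0.54, SE 0.096, adjusted p 0.0344), and Vcl, the vinculin gene, from 87.7, 114 and 103 to 72.8, 72.9 and 71.9 CPM (log2 fold change -0.48, SE 0.092, adjusted p 0.0364). Rhog, a small GTPase gene, was at 346, 393 and 352 CPM in vehicle and 287, 298 and 287 CPM with CX-5461. These falls were small and vehicle 2 was the highest library in each. Vasp (-0.54), Actn1 (-0.69), the nonmuscle myosin gene Myh9 (-0.22) and moesin, Msn (-0.29), fell as well. Of 30 integrin and adhesion genes 3 fell, Cd44 (-0.32), Itgb5 (-0.29) and Itgb7 (-1.05), and Icam1 rose. Under the red cell covariate the actin median was -0.13 and the chemotactic median -0.04, and no gene of these 3 lists was called there or without CX 1, 2 or 3. Without vehicle 1, 2 or 3, 16, 10 and 7 actin and 8, 7 and 11 chemotactic receptor genes were lower.

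Among the largest falls above 20 CPM that are in no marker list were further genes known from red cells. Hemgn, an erythroid nuclear factor gene, was at 26.01, 102 and 4.16 CPM in vehicle and 0.554, 0.964 and 0.766 CPM with CX-5461, Tmcc2 at 98.8, 239 and 11.5 and 4.77, 3.72 and 5.66 CPM, and Tent5c, a poly(A) polymerase gene, at 60.98, 180.4 and 7.25 and 1.45, 2.02 and 2.38 CPM. Each had vehicle 2 highest, vehicle 1 next and vehicle 3 lowest, the order of the red cell list. Map3k9, a kinase gene, did not share that order and was at 14.7, 30.3 and 19.96 CPM in vehicle and 6.33, 8.22 and 6.09 CPM with CX-5461 (log2 fold change -1.65, SE 0.27, adjusted p 0.0312). Abundant genes that rose included the mannosidase gene Man2b1, from 845, 817 and 912 to 1043, 1103 and 1131 CPM (log2 fold change 0.35, SE 0.065, adjusted p 0.0361), the proliferation-associated gene Pa2g4, from 455, 393 and 411 to 571, 579 and 549 CPM (log2 fold change 0.43, SE 0.067, adjusted p 0.0281), and Set, a histone chaperone gene, from 669.96, 568 and 648 to 792, 792 and 764 CPM. Abundant genes that fell included the actin-binding gene Cotl1, from 748, 890.02 and 768 to 628, 652 and 626 CPM (log2 fold change -0.34, SE 0.077, adjusted p 0.0455), and the membrane protein gene Serinc3, from 753, 986 and 718 to 525, 570.4 and 595 CPM.

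The study also treated p53null AML for 10 h and p53WT AML for 72 h, for which the authors' deposited tables give fold changes without counts, so that no difference between these comparisons was tested. At an FDR under 0.05, the authors' deposited table for p53null leukemia held 19 of 12861 genes (0.148%) as higher and 5 (0.0389%) as lower, and the authors' deposited table for 72 h held 2064 of 12838 (16.1%) as higher and 1938 (15.1%) as lower. The authors' deposited table for p53null AML listed log2 fold changes of -0.03 for Cdkn1a, 0.16 for Gtse1, 0.07 for Ccng1, -0.11 for Aen, -0.06 for Bax and -0.18 for Slc19a2. The authors' deposited table for p53WT AML at 72 h listed 1.70, 0.44, 0.80, 0.44, 0.55 and 0.65 for the same genes. The ribosome assembly genes Nop58, Tsr1 and Ftsj3 stood at 0.03, 0.13 and 0.13 in the authors' deposited table at 72 h (FDR 0.83, 0.28 and 0.24). Other ribosome genes named above ranged more widely there. Utp4 stood at 0.33 and Taf1c at 0.28 (FDR 0.000603 and 0.0258), and Ncl, Nat10 and Polr1b at 0.19, -0.02 and -0.03 (FDR 0.11, 0.88 and 0.85). In the same authors' deposited table the neutrophil genes Ly6g, Ltf and Lcn2 stood at 2.61, 2.10 and 1.25, and in that for p53null AML at -0.11, -0.06 and -0.02. The authors' deposited table at 72 h listed 1.35 for the red cell gene Slc4a1.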

How the data were processed

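RNA libraries of sorted AML cells were made with the TruSeq RNA v2 kit, which keeps no strand, per the labels' protocols. The authors deposited whole-number counts per gene for the 6 libraries, and CASAVA 1.8.2, Bowtie, HTSeq, edgeR and build mm9 are named in the submitters' processing notes. The annotation was not given in the sources used here. Each of the 3 deposited tables also holds log2 fold changes, p-values and FDR values from edgeR, per the file headers, and for p53null AML and for 72 h the tables hold no counts.

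Counts were taken as deposited, without a further filter, and fitted with the edgeR quasi-likelihood F test (edgeR 4.0.16, R 4.3.3, TMM scaling, treatment as the only term, 4 residual degrees of freedom), with Benjamini-Hochberg adjustment over 12679 genes and a threshold of 0.05. Log2 CPM used a prior count of 2. Alternatives were RLE or library-size scaling, a minimum mean of 5 CPM, DESeq2 1.42.0, limma-voom (limma 3.58.1), the edgeR exact test, robust estimation, each library left out, a replicate block and the red cell level as a covariate. A voom fit with 1 variance per arm was chosen after seeing the data.

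Depth was 21578685 to 48118513 counts per library. Over all genes, libraries of an arm differed by more than counting error: chi-square per degree of freedom was 33.3 to 81.3 between vehicle and 5.69 to 7.17 between CX libraries, so that no library was a duplicate. The arm of a column was taken from its name, and no column was tied to a single sample title.

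The gene lists and the genes were chosen with earlier results of these data known. By rule, the text names the 15 largest rises and the 15 largest falls with at least 20 CPM in the higher group, 12 further falls outside marker lists, the 8 most abundant called genes in each direction, up to 3 members per list by p, and set genes such as Cdkn1a, and it leaves some of these out. Outside that rule, and after their values were seen, Actn1, Ak1, Aldh4a1, Angptl4, Bmf, C5ar1, Cad, Calhm2, Ccnd3, Cd3e, Cd3eap, Cst7, D630023F18Rik, Dcxr, Dgka, Ebp, Ei24, Eif1ad, Elane, Ercc5, Exoc4, Fkbp4, Gm15987, Hspd1, Insig1, Ipo4, Ipo5, Itgb7, Lcn2, Ldhb, Lpin1, Ltf, Ly6g, Mdm4, Mettl1, Mpo, Mthfd1, Nat10, Ndrg1, Nop58, Nsun2, Pf4, Pfas, Pidd1, Ptafr, Ptprc, Qpctl, Rela, Rps27l, Slc6a9, Sqle, Taf1c, Timm23, Tlr1, Tnfrsf10b and Vasp were named. Some genes of these lists are not reported here. Promoter windows, 250 bases before to 50 after a start, are RefSeq sequence of a newer build than mm9, matched by symbol.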

Additional observations from a re-analysis of the deposited data

How the results depend on the processing

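With a mean of at least 5 CPM, 515 genes were higher and 656 lower. DESeq2 gave 960 higher and 1346 lower, limma-voom 330 lower and the exact test 1020 lower. Leaving out 1 library gave 23 to 817 higher and 0 to 861 lower genes, and the low counts were those without CX 1, 2 or 3 (24, 23 and 23 higher). At an unadjusted p under 0.05 these 3 fits gave 1169 to 1383 higher and 1369 to 1558 lower genes. The cause was not tested. The red cell level as a covariate left 12 higher and 0 lower, with 729 and 501 at an unadjusted p under 0.05. The limma-voom fit with 1 variance per arm, chosen after seeing the data, gave 621 higher and 775 lower.

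Whether equal column numbers mark paired libraries is not given by the labels. Deviations of same-numbered libraries correlated at 0.30, 0.11 and 0.03. Each vehicle library correlated best with the CX library of its own number, while CX 3 correlated best with vehicle 2 (0.09). With the column number as a replicate block, 679 genes were higher and 857 lower.

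Of the 66 list counts above 0, all 66 fell by more than 1.5 times without CX 1, 2 or 3 and with the covariate, 27, 19 and 34 moved by that much without vehicle 1, 2 or 3, and 46 did with DESeq2, all upward. The covariate turned the median of 24 of the 65 lists to the opposite sign, and the fit without vehicle 2 that of 8. Of the 177 genes given with values, 8 changed sign with the red cell covariate: Alas2 (0.68), Dusp1 (0.039), H2-Eb1 (0.076), Hoxa9 (-0.00152), Kit (-0.015), Mxd1 (0.055), Myc (-0.060) and Tmcc2 (0.27). Hoxa9 ranged from -0.024 to 0.036 on the log2 scale in the fits without 1 library. Genes with few counts, such as Zfp365 in vehicle, are limited by depth.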
